A study of Mus musculus with 24 samples.

Results

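PDGFRα-SCA1+ cells are a fraction of the liver stroma that carries the surface protein SCA1 (encoded by Ly6a) but lacks PDGFRα, the platelet-derived growth factor receptor that marks liver mesenchyme. They were compared with the PDGFRα+ mesenchyme of the same livers to ask what kind of cell this fraction holds and from which vessels its transcripts are known. The comparison rests on 9 of the 24 samples of the series, chosen by the sorted population that their labels name. One side holds the 3 PDGFRα-SCA1+ samples, and the other holds 6 PDGFRα+ samples, 3 of them SCA1+ and 3 SCA1-.

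All 9 samples came from the livers of 3 healthy littermates of 12 weeks on a C57BL/6 background, mice A and E (male) and mouse F (female), and each mouse gave every population. Every mouse, and so every group, was heterozygous for the knock-in B6.129S4-Pdgfratm11(EGFP)Sor/J, in which the Pdgfra locus drives a nuclear GFP fused to histone H2B. PDGFRα+ and PDGFRα- were therefore read from GFP and not from an antibody, and 1 Pdgfra allele carried the reporter in all samples. All stromal cells were sorted as CD45-, CD11b- and CD31-, which leaves out leukocytes and cells with CD31, the product of the endothelial gene Pecam1, at the surface. EpCAM+ ductal cells (DCs) of the 3 mice, measured in the same way, give the level of each stromal gene in an epithelium.

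Libraries were made by Smart-seq2, which copies whole transcripts from small numbers of cells, and one normalised value per gene and sample was deposited. The depth recovered from low values was 21.8 to 25.7 M reads (reads in units of 1e+06) in PDGFRα-SCA1+ and 19.6 to 24.3 M reads in PDGFRα+ samples. Values are scaled by gene length and depth and carry a further factor of 0.722 to 1.39 that depends on the gene's place in the table. Spearman correlations between mice, across genes, which are not independent replicates, were 0.831 to 0.840 among PDGFRα-SCA1+ samples. Those of PDGFRα+SCA1+ samples were 0.888 to 0.890, and those of PDGFRα+SCA1- samples were 0.715 to 0.772. In bulk samples of this kind, fewer cells of a type and less RNA per cell cannot be told apart.

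Endothelial cells line all blood vessels and are held together by cadherin and claudin junctions. They read the growth factors VEGF and angiopoietin through the receptor kinases KDR, FLT1, TEK and TIE1. The liver has several kinds of vessel. Portal veins and hepatic arteries bring blood to the portal tract, sinusoids with open pores and scavenger receptors lead it past the hepatocytes, and central veins, which secrete Wnt proteins, drain it. Each kind is known for its own genes, and these were counted in lists of the genes of each vessel type and of other cell types.

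The sort was checked first. Pdgfra transcripts were at 0.0305, 0.0276 and 0.0402 in the PDGFRα-SCA1+ samples of mice A, E and F, which corresponds to 2 to 3 reads a library, and ran 52.9 to 103 (median 72.6) in the PDGFRα+ samples. Ly6a stood at 4969.5, 3018 and 4234 in PDGFRα-SCA1+, at 1307, 952 and 1064 in PDGFRα+SCA1+ and at 6.78, 32.9 and 20.5 in PDGFRα+SCA1- samples, so all 9 samples sit on the side that their labels give. The RNA of Pecam1 went against the CD31- label. It was at 726, 732 and 929 in PDGFRα-SCA1+ samples, against 0 to 3.21 (median 1.83) in PDGFRα+ samples and 0.221 to 3.07 in DCs, although cells with CD31 at the surface had been gated out. Ptprc, which encodes CD45, was at 3.10, 0.224 and 75.2 in PDGFRα-SCA1+ samples, high in mouse F alone. Itgam, which encodes CD11b, was at or under 0.200 in the 3 samples.

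Of 17028 genes tested, 2686 were higher in PDGFRα-SCA1+ cells (15.8%) and 1497 were lower (8.79%), by limma on log2(value + 1) with a Benjamini-Hochberg adjusted p under 0.05. 1419 genes were higher than in each PDGFRα+ population by itself (8.33%) and 945 were lower than in each (5.55%). In 2560 genes (15.0%) the 3 PDGFRα-SCA1+ values lay above all 6 PDGFRα+ values, and in 1196 genes (7.02%) they lay below. The median gene was 0.33 higher on the log2 scale, and 64.2% of the calls were higher. With quantile normalization that median was 0.041, and 1815 genes were higher against 1916 lower (48.6% higher). Log2 fold changes below are given as fitted, with their standard error (SE) where shown; relative to the median gene each is smaller by 0.33. They are on the log2(value + 1) scale, which understates the change of genes with low values.

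The 10 genes with the largest rise among those with no overlap, leaving out predicted genes, were Selp, AU021092, Fabp4, Cyp1a1, Upp1, Adgrl4, Pecam1, Slc26a10, Ptprb and Myct1, with log2 fold changes of 8.16 to 10.60. Selp encodes P-selectin, which endothelial cells store and bring to the surface to capture leukocytes, Fabp4 a fatty acid carrier of capillaries, and Ptprb the phosphatase VE-PTP that acts on TEK and on the endothelial cadherin. Cyp1a1, an enzyme that the aryl hydrocarbon receptor induces, was at 209.6, 272 and 969 in PDGFRα-SCA1+ samples and 0 to 0.149 (median 0.0516) in PDGFRα+ samples. The 10 with the largest fall were Mfap4, Ms4a4d, Cilp, Mmp3, Islr, Tslp, Dpt, Mmp2, Loxl1 and Col6a2, with log2 fold changes of -8.80 to -7.59. Mfap4, Dpt, Loxl1 and Col6a2 encode proteins of collagen and elastic fibres, and Mmp2 and Mmp3 encode proteases that cut matrix.

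Selp had the largest rise of these (chr1:164115264-164150026 in GRCm38, on the plus strand). It stood at 3421, 5999 and 6216 in PDGFRα-SCA1+ samples and 0.345 to 14.5 (median 1.94) in PDGFRα+ samples (log2 fold change 10.60 ± 0.70, limma adjusted p = 6.8e-07). Sele, which encodes E-selectin, lies beside it on chromosome 1 (chr1:164048234-164057677) and was at 1176, 2015 and 2863, against 12.7 to 100.5 (median 43.2) in PDGFRα+ samples (5.54 ± 0.58, limma adjusted p = 2.3e-05). Both selectins were lowest in mouse A, and neither overlapped between the groups.

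Pdgfra, Kit and Kdr lie in this order on chromosome 5, at chr5:75152292-75198215, chr5:75574916-75656722 and chr5:75932827-75978458, and each encodes a receptor tyrosine kinase. Kdr, the main VEGF receptor of endothelium, was at 443, 423 and 332 in PDGFRα-SCA1+ samples and 0.201 to 14.6 (median 4.16) in PDGFRα+ samples (6.30 ± 0.72, limma adjusted p = 4.3e-05). Kit, the stem cell factor receptor and in liver a gene of endothelium near central veins, was at 150.0, 138 and 82.5, against 0 to 6.92 (median 1.28) (5.77 ± 0.66, limma adjusted p = 4.4e-05). Pdgfra, their neighbour, was near 0 in the same samples, but this was set by the sort on its reporter. A link between the levels of these neighbouring genes was not tested.

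The 250 bases before the start of 4 of these genes are shown, because ETS factors such as ERG and FLI1, which are counted further on, are known to act on promoters of endothelial genes. Selp was taken from the genes of larger veins, Kdr from the pan-endothelial and Clec4g from the sinusoidal genes, and Pdgfra is the mesenchymal gene of the sort. The motif searched was AGGAAG, an ETS core with its flanks, on both strands, and capitals mark each match. Sequences are from RefSeq on GRCm38.p6, written 5′ to 3′ on the strand of the gene.
Selp (chr1:164115014-164115263, plus strand): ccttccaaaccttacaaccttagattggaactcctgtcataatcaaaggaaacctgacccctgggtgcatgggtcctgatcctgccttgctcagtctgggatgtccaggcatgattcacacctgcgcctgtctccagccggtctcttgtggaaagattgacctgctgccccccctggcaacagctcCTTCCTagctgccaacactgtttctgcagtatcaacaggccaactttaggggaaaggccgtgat
Clec4g (chr8:3720652-3720901, minus strand): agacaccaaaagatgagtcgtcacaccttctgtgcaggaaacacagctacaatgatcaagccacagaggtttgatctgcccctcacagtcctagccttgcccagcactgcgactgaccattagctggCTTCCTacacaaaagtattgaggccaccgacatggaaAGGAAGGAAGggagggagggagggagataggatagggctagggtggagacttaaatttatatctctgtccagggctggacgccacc
Kdr (chr5:75978456-75978705, minus strand): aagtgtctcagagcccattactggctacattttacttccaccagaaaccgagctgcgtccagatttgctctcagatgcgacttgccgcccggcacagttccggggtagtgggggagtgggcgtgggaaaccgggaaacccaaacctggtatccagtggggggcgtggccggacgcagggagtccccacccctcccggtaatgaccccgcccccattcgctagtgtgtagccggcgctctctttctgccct
Pdgfra (chr5:75152001-75152250, plus strand): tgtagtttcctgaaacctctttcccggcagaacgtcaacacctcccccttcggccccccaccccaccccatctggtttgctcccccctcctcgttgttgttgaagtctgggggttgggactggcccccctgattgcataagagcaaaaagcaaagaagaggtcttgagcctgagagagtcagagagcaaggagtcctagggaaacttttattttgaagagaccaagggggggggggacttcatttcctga
The Selp stretch held 1 match and the Clec4g stretch 3, whereas neither the Kdr nor the Pdgfra stretch held these letters. Of the genes with a promoter in the table, 7 of 12 pan-endothelial, 3 of 13 arterial and 6 of 10 mesenchymal matrix genes had one. Among all RefSeq promoters of this length, 8734 of 27025 genes (32.3%) had at least 1 promoter with a match, and the matches are given as a description.

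All 23 pan-endothelial genes were higher in PDGFRα-SCA1+ cells, without overlap and against each PDGFRα+ population, with a median log2 fold change of 7.04. Their summed level was 18920.4 to 20376 in PDGFRα-SCA1+ samples and 65.8 to 112 in DCs. Among the PDGFRα+ samples the SCA1+ ones summed to 955 to 1209 and the SCA1- ones to 1057 to 3049. Cdh5, the cadherin of endothelial junctions, was at 320.2, 392 and 281, against 0 to 1.18 (median 0.0347) in PDGFRα+ samples (8.13 ± 0.44, limma adjusted p = 1.5e-07). Emcn, a mucin of venous and capillary endothelium, was at 319, 337 and 288, against 0.0314 to 2.38 (median 0.0433) (7.95). Nos3, the endothelial nitric oxide synthase, was at 129.9, 149 and 204, against 0 to 2.05 (median 0.259) (6.76). In these 3 genes no PDGFRα+ sample came above 2.38, and none of the 3 genes overlapped between the groups.

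A few pan-endothelial genes were also transcribed in the mesenchyme, and their fold changes were the smallest of the list. Eng, which encodes endoglin, a co-receptor for bone morphogenetic proteins (BMPs), was at 4270.3, 4784 and 3087, against 538 to 1223 (median 657) in PDGFRα+ samples (2.48 ± 0.35, limma adjusted p = 2.3e-04). Plvap, which builds the diaphragms of endothelial pores, was at 4874, 3973 and 3618, against 246 to 1911 (median 324) (2.96 ± 0.49, limma adjusted p = 8.2e-04). In mice A, E and F it was at 1662, 1911 and 328 in PDGFRα+SCA1- and at 265, 320 and 246 in PDGFRα+SCA1+ samples. The log2 fold change was 2.02 against the SCA1- and 3.90 against the SCA1+ samples. Flt1, a VEGF receptor that also binds the ligand as a decoy, was at 263, 290.1 and 277, against 17.5 to 47.0 (median 29.9) (3.22 ± 0.35, limma adjusted p = 3.1e-05).

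**Figure D1:**
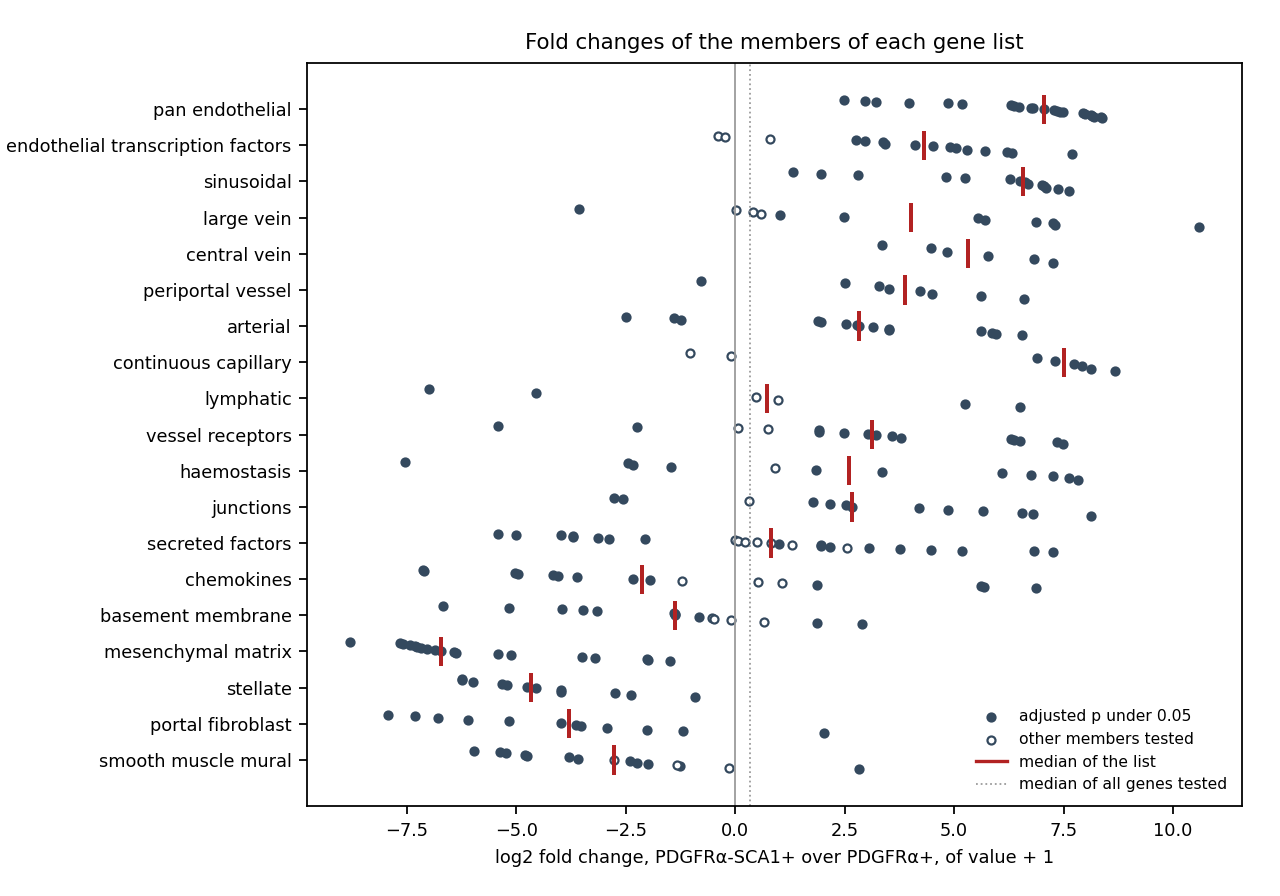
Log2 fold change (PDGFRα-SCA1+ over PDGFRα+, of value + 1, x axis) of each tested member of 19 gene lists (y axis), where filled points have a limma adjusted p under 0.05 and open points do not. Red bars are list medians and the dotted line is the median of all genes tested (0.33). The pan-endothelial and sinusoidal genes all lie right of 0, the matrix and stellate genes all left of it, and the secreted factors and chemokines on both sides.

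Of 16 endothelial transcription factors, 13 were higher and none was lower, with a median of 4.31. Erg, an ETS factor that keeps endothelial identity, was at 71.7, 80.3 and 83.8 in PDGFRα-SCA1+ samples, and no read was counted in any PDGFRα+ sample or in DCs. Set against a floor of 3 reads in each PDGFRα+ library, Erg was at least 639.6-fold higher. Tal1, a partner of LMO2 in blood and endothelium, was at 24.3, 34.4 and 43.0, against 0 to 0.190 (median 0) in PDGFRα+ samples (5.04 ± 0.36, limma adjusted p = 1.3e-06).

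The SOX factors of vessels were all higher. Sox18, which takes part in artery and lymphatic formation, was at 823, 809 and 1025, against 0 to 20.6 (median 4.65) (7.70), Sox7 rose by 5.31 and Sox17, an arterial factor, by 6.21. Klf2, a factor that blood flow induces in endothelium, was at 1459.5, 1146 and 1225, against 115 to 217 (median 161) in PDGFRα+ samples (2.97 ± 0.21, limma adjusted p = 1.2e-06). Hhex, a factor of both endothelium and liver epithelium, was at 81.9, 99.7 and 127, against 0 to 6.83 (median 0.254) in PDGFRα+ samples, and still higher in DCs, at 229.9 to 333. Gata2 had the weakest call (2.77 ± 0.85, limma adjusted p = 0.033), which was lost without the PDGFRα-SCA1+ sample of any one mouse or the PDGFRα+SCA1+ sample of mouse E or F (limma adjusted p up to 0.11). The Gata2 call was also lost with a pseudocount of 0.1 (limma adjusted p = 0.14) and with quantile normalization (0.056). It did not hold with the 9 stromal samples alone either (0.071), nor there with all PDGFRα+ samples as 1 group (0.071). The 3 factors that did not pass were Ets1 (310.3, 239 and 584 against 132 to 327 (median 189.9)), Ets2 (182, 175 and 248 against 149 to 308 (median 244)) and Klf4 (354, 341 and 218 against 283 to 531 (median 385)), and each overlapped between the groups.

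All 14 sinusoidal genes were higher and none overlapped, with a median of 6.56. Stab2, a scavenger receptor of sinusoids that clears hyaluronan (chr10:86841198-87008025 in GRCm38), was at 303, 345 and 128, against 0.0194 to 5.43 (median 2.24) in PDGFRα+ samples (6.28 ± 0.53, limma adjusted p = 4.2e-06). Clec4g, a lectin of sinusoidal endothelium whose promoter is shown above, was at 2185, 2485 and 1638, against 4.64 to 32.1 (median 16.1) (7.09 ± 0.64, limma adjusted p = 7.2e-06). Dnase1l3, a secreted DNase, was at 2063, 2100.3 and 1206, against 0.0587 to 27.2 (median 16.2) (7.38 ± 0.87, limma adjusted p = 5.9e-05). In each of these, mouse F had the lowest of the 3 values.

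Other scavenger and uptake genes of sinusoids moved likewise. The log2 fold changes were 6.63 for Stab1, 6.69 for the mannose receptor Mrc1, 4.82 for the Fc receptor Fcgr2b, 7.05 for Gpr182, which binds chemokines, and 7.01 for Oit3. F8, clotting factor VIII, which liver endothelium supplies to blood, was at 335, 193 and 309.8, against 0.0153 to 2.46 (median 0.169) in PDGFRα+ samples (7.63). Gata4 and Bmp2 had the smallest rises of the list. Gata4, the factor that sets the sinusoidal programme and is also a factor of stellate cells, was at 346, 405 and 222, against 80.9 to 158 (median 141) (1.32 ± 0.34, limma adjusted p = 0.013), and its call was lost without the PDGFRα-SCA1+ sample of mouse A or of mouse E (limma adjusted p up to 0.069) and with a pseudocount of 0.1 (limma adjusted p = 0.18).

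Of 12 genes of larger veins, 8 were higher, 1 was lower and 3 did not pass the test. Vwf, von Willebrand factor, which sinusoids hold little of, was at 212, 185 and 159.6, against 0.00984 to 1.72 (median 0.0185) (7.26 ± 0.45, limma adjusted p = 4.7e-07). Ackr1, a chemokine-binding receptor of venules, was at 469, 487 and 453, against 0.981 to 6.08 (median 3.30) (6.86 ± 0.48, limma adjusted p = 9.7e-07). The venous receptor Ephb4 rose by 2.49, and Lrg1, which is made in many activated endothelia and in DCs at 71.0 to 252, was at 1262, 1126 and 1009.8, against 0.269 to 30.2 (median 10.6) (7.30).

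The leukocyte adhesion gene Vcam1 was at 885, 1432 and 1522, against 432 to 846 (median 603) in PDGFRα+ samples (1.03 ± 0.24, limma adjusted p = 0.0078). Icam1 was at 1643, 2062 and 1951, against 1180.0 to 1965 (median 1364) (0.40 ± 0.20, limma adjusted p = 0.16), and the groups overlapped. The venous factor Nr2f2 also overlapped between the groups, at 33.7, 67.1 and 28.8, against 11.1 to 39.8 (median 30.6) (limma adjusted p = 0.39). Vwa1, a matrix protein, was the member that was lower, at 10.3, 1.34 and 15.8, against 40.2 to 138 (median 107) (-3.57).

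All 6 genes known from endothelium around central veins were higher, with a median of 5.31. Wnt2, a Wnt ligand for hepatocytes (chr6:17988940-18030585 in GRCm38), was at 1106, 1053 and 400.4, against 0.0756 to 25.3 (median 3.23) in PDGFRα+ samples (7.26 ± 0.83, limma adjusted p = 4.4e-05). Wnt9b, the second Wnt ligand of the central vein, was at 141, 122 and 85.8, while PDGFRα+ samples held at most 0.0306 (6.83 ± 0.46, limma adjusted p = 8.0e-07). Rspo3, which amplifies Wnt signals, was at 1201, 1099 and 814, against 16.1, 29.4 and 18.8 in PDGFRα+SCA1+ and 159, 100.1 and 59.9 in PDGFRα+SCA1- samples (4.46 ± 0.36, limma adjusted p = 3.5e-06). Rspo3 was thus measured in the mesenchyme as well, higher in its SCA1- than in its SCA1+ samples, and Wnt9b hardly at all. Thbd rose by 3.36 and Cdh13 by 4.85.

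Of 8 genes of vessels near the portal tract, 7 were higher and 1 was lower. Msr1, a scavenger receptor, was at 138, 149 and 146, against 0.0249 to 2.97 (median 0.176) (6.60 ± 0.54, limma adjusted p = 3.7e-06). Ntn4, a netrin of basement membranes, was at 63.0, 21.6 and 25.1, against 0 to 3.55 (median 0.192) (4.49), and Adgrg6, an adhesion receptor, at 34.7, 17.6 and 17.6, against 0 to 2.46 (median 0.0136) (4.22). Ltbp4, which binds latent TGF-β, was the lower one (-0.77 ± 0.25, limma adjusted p = 0.04), but its groups overlapped and the call was lost without any one of 11 samples (limma adjusted p up to 0.19).

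The listed arterial genes were lower in level than the listed sinusoidal genes. Values are scaled by length, so genes can be set beside each other only within the further factor of 0.722 to 1.39 given above. List medians also depend on which genes were listed. The median member was at 63.0 in PDGFRα-SCA1+ cells, against 302 for sinusoidal, 344 for large vein and 595 for central vein genes. Of 15 arterial genes, 12 were higher and 3 lower, with a median of 2.83. Gja5, a connexin of arterial endothelium, was at 106, 76.4 and 111, against 0 to 0.148 (median 0.0280) in PDGFRα+ samples (6.55 ± 0.39, limma adjusted p = 3.6e-07). Bmx, a kinase of arterial endothelium, was at 65.8, 41.9 and 81.1, with no read in any PDGFRα+ sample, or at least 393-fold higher than the floor of 3 reads a library. Gkn3, an arterial gene of mouse vessels, was at 32.3, 60.9 and 178, against 0 to 2.59 (median 0) (5.86), and was highest in mouse F.

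The Notch ligand Dll4 was at 245, 303 and 352, against 0.118 to 32.0 (median 6.09) (5.61 ± 0.84, limma adjusted p = 3.8e-04), and the arterial ephrin Efnb2 was at 48.3, 39.3 and 94.7, against 0 to 10.7 (median 7.01) (3.52). Hey2, a Notch target of arteries and of mural cells, went the other way, at 0, 0.0348 and 0, against 0 to 10.2 (median 6.41) (-2.49), and the groups overlapped because a PDGFRα+ sample was also at 0. Without the PDGFRα-SCA1+ sample of mouse F, 7 of the 15 arterial genes were higher in place of 12. Over all genes tested, that fit called 1845 higher in place of 2686. With all PDGFRα+ samples fitted as 1 group, 1 arterial gene in place of 3 was lower.

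Lymphatic genes divided. Flt4 and Lyve1, which sinusoids share with lymphatics, were higher, by 6.50 and 5.25. The markers that tell lymphatic from sinusoidal cells were not. Prox1, the factor that makes lymphatic endothelium, was at 3.68, 14.1 and 5.31, against 0.0650 to 9.24 (median 3.56) in PDGFRα+ samples and 68.3 to 93.6 in DCs (0.98 ± 0.67, limma adjusted p = 0.32). Pdpn, podoplanin, was lower, at 4.72, 0.188 and 8.07, against 213 to 1001 (median 603) (-7.00 ± 0.63, limma adjusted p = 7.3e-06). Mmrn1 and Ccl21a were listed at 0 in all 9 samples, and Ccl21a has near-identical copies in the mouse genome, so its reads could be lost in counting.

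Among 9 genes known from capillaries with a continuous wall, as in heart or fat, 8 could be tested, 6 were higher and none was lower. Cd36, a fatty acid transporter, was at 356, 312 and 334, against 0 to 1.70 (median 0.0187) (8.13 ± 0.40, limma adjusted p = 9.6e-08). Fabp4 was at 934, 795 and 676, against 0.0308 to 3.44 (median 0.815) (8.67 ± 0.57, limma adjusted p = 6.4e-07), Gpihbp1, which anchors lipoprotein lipase, at 1157, 975 and 547 (7.92) and the water channel Aqp1 at 5938, 4298 and 5577 (7.73). Car4, the enzyme that marks such capillaries in several organs, was at 0 in the 3 PDGFRα-SCA1+ samples, where 0 allows up to 3 reads a library, and Aqp7 was at 0 there as well.

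**Figure D2:**
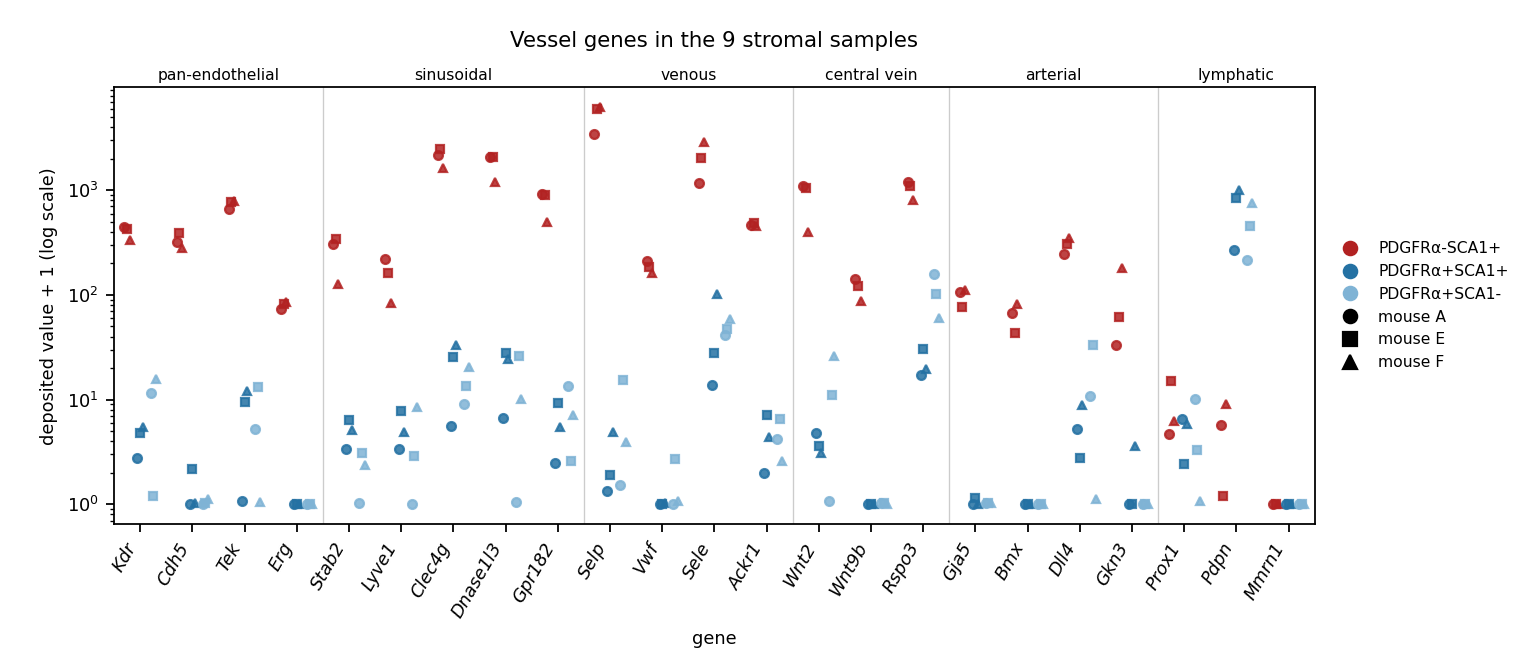
Deposited value + 1 (log scale, y axis) of 23 vessel genes (x axis) in each of the 9 stromal samples, coloured by population and with a marker shape per mouse. PDGFRα-SCA1+ samples (red) lie above all PDGFRα+ samples (blue) in the genes drawn under pan-endothelial, sinusoidal, venous, central vein and arterial, whereas Prox1 overlaps, Pdpn is lower and Mmrn1 is at 0.

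The 3 mice differed in their levels of the genes of each vessel type. With the reuse of totals in the deposited table undone, so that all samples have the same total (TPM), mouse F was the lowest of the 3 PDGFRα-SCA1+ samples in 13 of 14 sinusoidal and 6 of 6 central vein genes, and the highest in 8 of 14 arterial genes, counting genes with a mean of at least 5 TPM. The median ratio of mouse F to the mean of mice A and E was 0.589 for sinusoidal, 0.639 for central vein, 1.02 for large vein and 1.28 for arterial genes. Mouse F was also the lowest in 16 of 23 pan-endothelial genes (ratio 0.863) and 6 of 7 genes of continuous capillaries (0.735). On the deposited scale the counts were 11 sinusoidal, 4 central vein, 11 pan-endothelial and 4 continuous capillary genes lowest and 11 arterial genes highest in mouse F. Stab2 was at 351, 345 and 110.0 TPM in mice A, E and F and Wnt2 at 948, 977 and 365, both lowest in mouse F. Gkn3, at 33.8, 69.6 and 182 TPM, and Gja4, at 1105, 1076 and 1416, were highest there. Mouse F was the single female, so mouse and sex cannot be told apart, and genes of 1 sample share that sample, so no test was made.

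**Figure D3:**
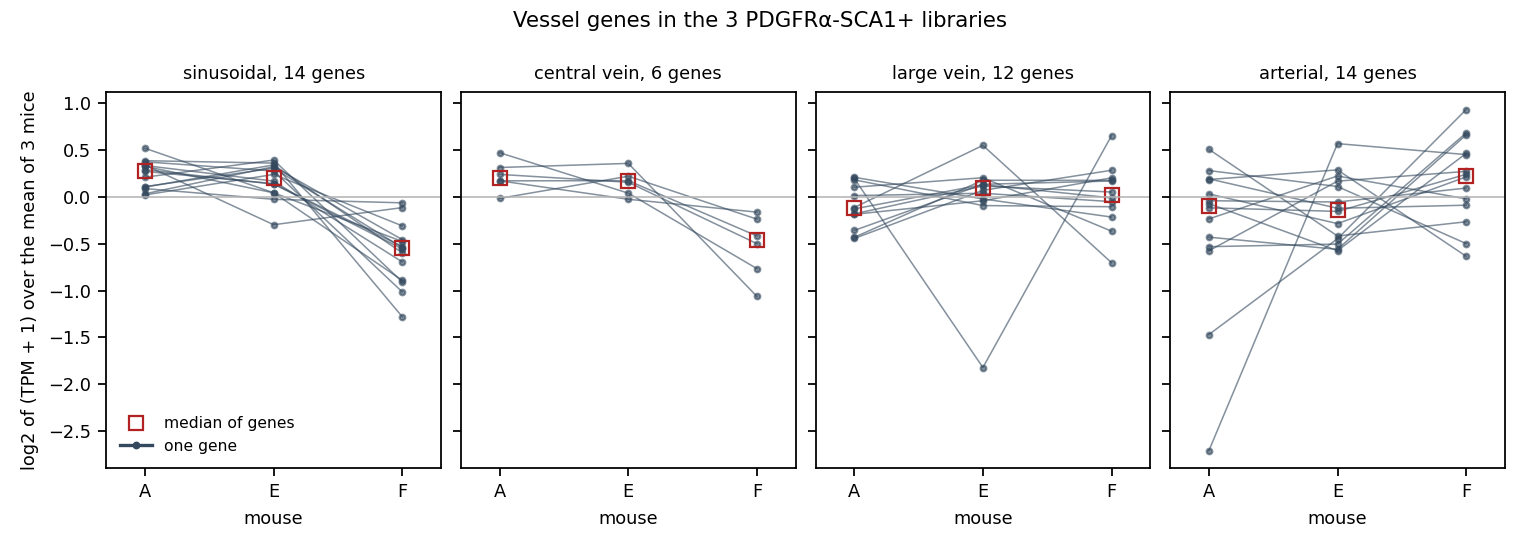
Log2 of TPM + 1 in each PDGFRα-SCA1+ sample over the mean of the 3 samples (y axis) for mice A, E and F (x axis), one line per gene, in 4 vessel lists, with red squares for the median of the genes. Sinusoidal and central vein lines drop in mouse F, arterial lines mostly end above 0 there, and large vein lines stay near 0 with a few exceptions.

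The receptors by which vessels read their surroundings followed the endothelial genes. Of 16 tested, 12 were higher, 2 were lower and 2 did not pass. The angiopoietin receptor Tek was at 664, 774 and 797, against 0.0608 to 12.1 (median 6.35) in PDGFRα+ samples (7.35 ± 0.87, limma adjusted p = 6.1e-05), and its partner Tie1 was at 435, 335 and 361, against 0 to 7.28 (median 0.894) (7.48 ± 0.66, limma adjusted p = 6.0e-06). S1pr1, the receptor for sphingosine phosphate that keeps vessels tight, was at 918, 1015 and 2006, against 2.10 to 43.3 (median 15.9) (6.38). Of the Notch receptors, Notch4, which is endothelial, was at 19.0, 17.4 and 22.7, against 0 to 3.33 (median 0.283) (3.78 ± 0.49, limma adjusted p = 1.3e-04), and Notch3, which is mural, at 3.49, 3.09 and 0.342, against 9.18 to 21.9 (median 10.9) (-2.25 ± 0.52, limma adjusted p = 0.0075). Pdgfrb, the receptor of pericytes and fibroblasts, was the other lower one, at 8.33, 0.280 and 16.8, against 163 to 338 (median 269.9) (-5.42). Among the PDGFRα-SCA1+ samples, Aplnr had a value above 0 in mouse F alone (22.7).

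Ligands on the 2 sides were largely different ones. Of 25 secreted growth factors, 10 were higher and 8 lower in PDGFRα-SCA1+ cells. Besides Wnt2, Wnt9b and Rspo3, the higher ones included Bmp2 at 725, 1051 and 754, against 166 to 309.8 (median 204) (1.95 ± 0.33, limma adjusted p = 8.3e-04), and Bmp6, which with Bmp2 sets hepcidin and so iron uptake, at 54.4, 81.9 and 72.1, against 2.35 to 18.9 (median 8.94) (3.07 ± 0.26, limma adjusted p = 4.4e-06). Pdgfb, the endothelial ligand for PDGFRβ on mural cells, was at 45.6, 32.3 and 33.4, and PDGFRα+ samples held at most 0.175 (5.17 ± 0.36, limma adjusted p = 9.6e-07). The stem cell factor gene Kitl rose by 2.17 and the activin subunit gene Inhbb by 3.77. Pdgfb thus lay opposite to Pdgfrb, the ligand high where the receptor was low. Pdgfb and Bmp6 were also high in ductal epithelium. In the transwell experiment of the closing section, freshly sorted DCs held Pdgfb at 43.6 and 42.8 RPKM, against 0.706 and 3.75 in SCA1+ stroma. That stroma came from other mice and was sorted without a gate on PDGFRα, so it is neither side of the comparison. Bmp6 was at 53.2 and 67.8 RPKM in these DCs, against 4.78 and 4.35.

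The lower ligands had more transcript in the mesenchyme, but not all of them are mesenchymal alone. In the transwell experiment of the closing section, freshly sorted DCs held Lif at 189 and 135 RPKM, against 78.9 and 77.4 in SCA1+ stroma not gated on PDGFRα. Hgf, a hepatocyte mitogen, was at 4.69, 1.02 and 4.07, against 36.7 to 140.1 (median 47.9) (-3.99 ± 0.48, limma adjusted p = 6.3e-05), and Igf1 was at 7.58, 7.30 and 6.04, against 37.2 to 134 (median 62.6) (-3.13). Angpt1, the ligand that activates TEK, was at 0 in all 3 PDGFRα-SCA1+ samples and ran 2.32 to 18.1 (median 6.87) in PDGFRα+ samples, at least 84.1-fold lower against the floor of 3 reads a library. Angpt2, the ligand that can block TEK, was at 68.9, 27.2 and 45.3, against 0 to 40.4 (median 8.60), and did not pass (limma adjusted p = 0.091). The cytokines Il6 and Lif were lower, Il6 at 56.5, 85.8 and 79.8 against 862 to 6095 (median 2309.6) (-5.01) and Lif by a log2 fold change of -5.42. Vegfa, the KDR ligand, was at 11.8, 4.14 and 7.85, against 16.5 to 45.1 (median 39.0) (-2.05 ± 0.39, limma adjusted p = 0.0022).

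Chemokines were mostly on the mesenchymal side, with 9 of 16 genes lower and 4 higher. Cxcl12, which holds CXCR4+ cells in place, was at 41.2, 58.4 and 40.4, against 642 to 2395 (median 1587) (-4.95 ± 0.28, limma adjusted p = 2.2e-07). Ccl2 and Ccl7, which draw monocytes, were at 548, 319.8 and 402 and at 86.2, 79.8 and 28.4, with log2 fold changes of -4.05 and -7.11. The 2 ligands that were higher are interferon-induced. Cxcl9 was at 301, 319 and 355, against 1.92 to 15.5 (median 5.30) (5.68 ± 0.50, limma adjusted p = 6.2e-06), and Cxcl10 at 4901, 7497 and 9591, against 1298 to 3014 (median 1796) (1.86 ± 0.30, limma adjusted p = 7.0e-04). The other 2 were the scavenging receptors Ackr1 and Ackr2, the latter at 75.1, 163 and 32.1, against 0 to 3.69 (median 0.0441) (5.61).

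**Figure D4:**
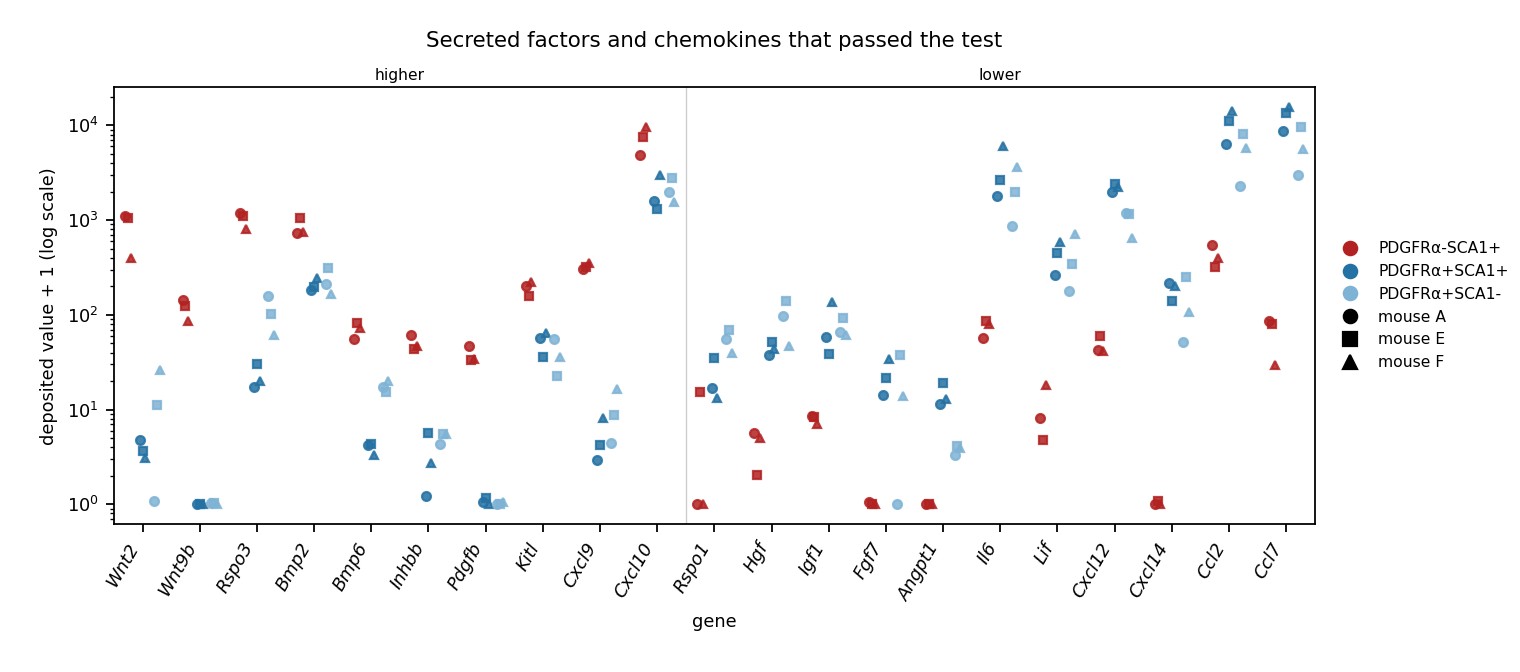
Deposited value + 1 (log scale, y axis) of 10 secreted factors and chemokines that were higher in PDGFRα-SCA1+ cells and 11 that were lower (x axis), in each of the 9 stromal samples, coloured by population and with a marker shape per mouse. Red points lie above all blue points in the genes on the left. On the right they lie below them, except for Rspo1, where mouse E reaches the PDGFRα+ samples, and Fgf7, where 1 PDGFRα+ sample is at 0.

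Of 12 genes of clotting and vessel tone, 7 were higher, 4 lower and 1 did not pass. Edn1, the vessel-constricting peptide endothelin 1, was at 435, 393 and 477, against 0.0674 to 5.80 (median 0.341) (7.83 ± 0.48, limma adjusted p = 4.6e-07), and Ece1, the protease that matures it, rose by 1.85. Entpd1, which removes the platelet agonists ATP and ADP, was at 353, 492 and 329.8, against 1.11 to 14.3 (median 4.82) (6.10). Ptgis, which makes prostacyclin, was on the mesenchymal side, at 1.13, 0.105 and 3.69, against 331 to 530.2 (median 401) (-7.54 ± 0.40, limma adjusted p = 1.4e-07), as was Plat, the tissue plasminogen activator (-2.45). Procr, the protein C receptor, is used as an endothelial marker but was at 682, 797 and 1402 in PDGFRα-SCA1+ samples, against 1109 to 5545 (median 2406) in PDGFRα+ samples (-1.46 ± 0.37, limma adjusted p = 0.014). Its groups overlapped, and the call was lost without the PDGFRα-SCA1+ sample of mouse A or E (limma adjusted p up to 0.068).

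Cell junction genes were higher in 10 of 13 and lower in 2. Cldn5, the claudin of tight endothelium, was at 900.5, 850.0 and 820.3, against 0.128 to 42.5 (median 10.8) (6.80 ± 1.13, limma adjusted p = 8.3e-04), Jam2 at 1432, 1010.5 and 1168, against 14.2 to 50.3 (median 16.6) (5.67), and F11r at 764, 755 and 806, against 23.8 to 112 (median 27.0) (4.21). F11r was also high in freshly sorted DCs of the transwell experiment, at 562 and 577 RPKM, against 48.7 and 58.0 in SCA1+ stroma not gated on PDGFRα. The lower genes were the mesenchymal cadherins Cdh2, at 0 in all 3 samples against 0.183 to 23.7 (median 5.83), and Cdh11, at 1.92, 0 and 0, against 1.65 to 20.1 (median 7.13) (-2.56). Neither of these 2 calls held without the PDGFRα-SCA1+ sample of mouse E (limma adjusted p of 0.063 and 0.059) or of mouse F (0.064 and 0.059), and that of Cdh2 did not hold without mouse A (0.063).

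Basement membrane genes were lower in 9 of 15 and higher in 2, where 8.79% of all genes were lower and 15.8% higher. The 2 higher ones encode the laminin chains of vessel walls, Lama4 at 49.4, 36.6 and 28.8, against 5.53 to 16.4 (median 10.3) (1.86 ± 0.39, limma adjusted p = 0.0043), and Lama5 at 36.1, 66.9 and 34.5, against 2.44 to 12.5 (median 4.81) (2.90 ± 0.41, limma adjusted p = 2.2e-04). Freshly sorted DCs of the transwell experiment also held Lama5, at 44.4 and 47.7 RPKM, against 3.47 and 5.59 in SCA1+ stroma not gated on PDGFRα. Lama2, the chain of muscle and mesenchyme, was at 0.0278, 0.114 and 0.0834, against 70.8 to 163 (median 110.1) (-6.68 ± 0.39, limma adjusted p = 3.2e-07), and Col15a1 at 0.971, 0.503 and 1.04, against 44.3 to 115 (median 62.6) (-5.17). The alpha chains of collagen IV did not pass, with Col4a1 at 178, 200.2 and 143, against 226 to 304 (median 233) (limma adjusted p = 0.087).

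In the mesenchymal lists nearly all genes were lower in PDGFRα-SCA1+ cells. All 19 matrix genes were lower without overlap, with a median of -6.71, and their summed level was 1663 to 1722 in PDGFRα-SCA1+ samples, 40058 to 65288 in PDGFRα+ samples and 179 to 195 in DCs. Col3a1 was at 14.3, 8.09 and 14.8, against 1581 to 2452 (median 2046) (-7.26 ± 0.24, limma adjusted p = 1.1e-08), and the proteoglycan gene Dcn at 391, 227 and 423, against 20423 to 43598 (median 25655) (-6.42 ± 0.30, limma adjusted p = 6.6e-08). Bgn, another proteoglycan, stayed well transcribed, at 1034, 1299 and 1099, against 2422 to 3728 (median 3419) (-1.50), and it made up most of the sum in PDGFRα-SCA1+ samples. That sum was higher than in DCs in all 3 mice, and whether it came from the sorted cells or from mesenchyme among them was not tested.

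All 12 stellate cell genes were lower without overlap. Ngfr, a receptor that marks stellate cells, was at 1.68, 0 and 0.0877, against 42.1 to 247 (median 117) (-6.24 ± 0.48, limma adjusted p = 2.2e-06), and Lrat, the enzyme that stores vitamin A, at 0.0858, 17.9 and 2.36, against 60.9 to 310.2 (median 158) (-5.21), with mouse E the highest of the 3. Of 12 portal fibroblast genes, 11 were lower. Gsn, gelsolin, was at 57.2, 109 and 121, against 9773 to 18575 (median 15422) (-7.30 ± 0.29, limma adjusted p = 2.3e-08), and Clec3b at 6.69, 0 and 0.154, against 172 to 340.0 (median 207) (-6.78). Fbln2, a fibulin of elastic fibres and vessel walls, was the exception, at 293, 207 and 315, against 23.7, 69.8 and 12.4 in PDGFRα+SCA1+ and 134, 188 and 129 in PDGFRα+SCA1- samples (2.04 ± 0.43, limma adjusted p = 0.004), and its call was lost with all PDGFRα+ samples fitted as 1 group (limma adjusted p = 0.12).

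Genes of smooth muscle and pericytes were lower in 11 of 15 and higher in 1. Acta2, smooth muscle actin, was at 78.6, 16.2 and 22.2, against 103 to 1708 (median 472) (-3.59 ± 0.49, limma adjusted p = 1.8e-04), Myh11 at 3.37, 3.37 and 5.62, against 17.5 to 369 (median 84.5) (-3.80), and Abcc9, a channel subunit of pericytes, at 7.77, 6.32 and 3.23, against 309 to 489.9 (median 429.7) (-5.97). Mcam, which is shared by mural and endothelial cells, was the higher one, at 146, 167 and 225, against 16.0 to 39.8 (median 20.9) (2.82 ± 0.30, limma adjusted p = 2.8e-05). In Acta2, Myh11 and Abcc9 every PDGFRα-SCA1+ value lay under every PDGFRα+ value.

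Markers of other cell types were counted in each PDGFRα-SCA1+ library. Ductal markers stood apart in mouse E, where the 10 genes summed to 3975, against 90.6 in mouse A and 384 in mouse F, 80.5 to 393 in PDGFRα+ samples and 61064 to 79154 in DCs. Epcam was at 0.610, 148 and 30.8 and Spp1, osteopontin, at 19.8, 3493 and 253, both high in mouse E. Krt19, a keratin of ducts, was at 56.1, 58.1 and 25.8, against 0.0919 to 15.4 (median 1.48) in PDGFRα+ samples and 2099.6 to 2639 in DCs, and differed little between mice A and E. Of the 10 ductal genes, 3 were called higher with all samples, 7 without the PDGFRα-SCA1+ sample of mouse A and 1 with the 9 stromal samples alone. In the other direction, 1 ductal gene was called lower with all samples, and 1 or 2 were under the alternatives.

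Lymphocyte and MHC class II genes stood apart in mouse F. The 9 lymphocyte genes summed to 48.1, 69.4 and 419.8 in mice A, E and F, with Cd79a of B cells at 33.2, 44.4 and 135, Cd4 at 0.0334, 0.152 and 45.6 and Ptprc high there as given above. The 5 MHC class II genes summed to 718, 292 and 6219, against 40.0 to 243 in PDGFRα+ samples. Of these 5, 3 were called higher with all samples and 0 without mouse F, and the T cell gene Cd3e lost its call without mouse F too (limma adjusted p = 0.084). Most arterial genes were also highest in mouse F, and 7 were called higher without that sample in place of 12. Calls of higher genes fell over all genes as well, from 2686 to 1845. The part of the lymphocyte markers in the arterial values was not tested.

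Hepatocyte genes were measured in every population, and the 10 genes summed to 4013, 7893 and 2829 in PDGFRα-SCA1+ samples, 1122 to 3077 in PDGFRα+ samples and 6493 to 7443 in DCs. Of these, 6 were called higher, and 2 with quantile normalization, whereas 1 was called lower with all samples and under every alternative. Erythroid genes summed to 3790.1 to 8516 in PDGFRα-SCA1+ samples, against 786 to 5312 in PDGFRα+ samples, with 1 of 5 genes called higher, 4 with the mouse as a replicate block and 0 with quantile normalization or a pseudocount of 0.1, and the globin genes are near-identical pairs whose reads counting can split. Of 8 macrophage and 5 granulocyte or platelet genes tested, none was called in either direction, although with limma they reached 2 and 1 at an unadjusted p under 0.05. Without the PDGFRα-SCA1+ sample of mouse E, 2 macrophage genes were called higher, and with quantile normalization 1 granulocyte or platelet gene was called lower. Macrophage genes summed to 146 to 465 in PDGFRα-SCA1+ samples, against 21.4 to 228 in PDGFRα+ samples. Mrc1, Fcgr2b, Msr1 and Lyve1 are also genes of macrophages. The macrophage list summed to 465, 259 and 146 in mice A, E and F. Its members Clec4f, at 30.2, 0 and 7.99, Vsig4, at 0, 0 and 0.412, and Adgre1, at 0.0574, 0 and 0, held little of this. Most of the sum lay in its other members, which are Cd68, Csf1r, C1qa, C1qb, C1qc, Cd5l, Timd4 and Lyz2. These are macrophage genes as well, and the part of macrophages in Mrc1, Fcgr2b, Msr1 and Lyve1 was not tested. Schwann cell genes summed to 0 to 0.108 in PDGFRα-SCA1+ samples.

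Mesothelial genes summed to 293 to 546 in PDGFRα-SCA1+ samples, against 10.9 to 207 in PDGFRα+ samples, but most of this was Gpm6a, at 418, 293 and 343, against 0 to 13.4 (median 0.787) (7.18 ± 0.77, limma adjusted p = 2.7e-05). The defining genes Msln and Upk3b were above 0 in mouse A alone, at 13.8 and 48.3. Wt1, which mesothelium and stellate cells share, was lower, at 2.09, 0.0774 and 0.0222, against 6.76 to 66.8 (median 28.2) (-4.05).

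**Figure D5:**
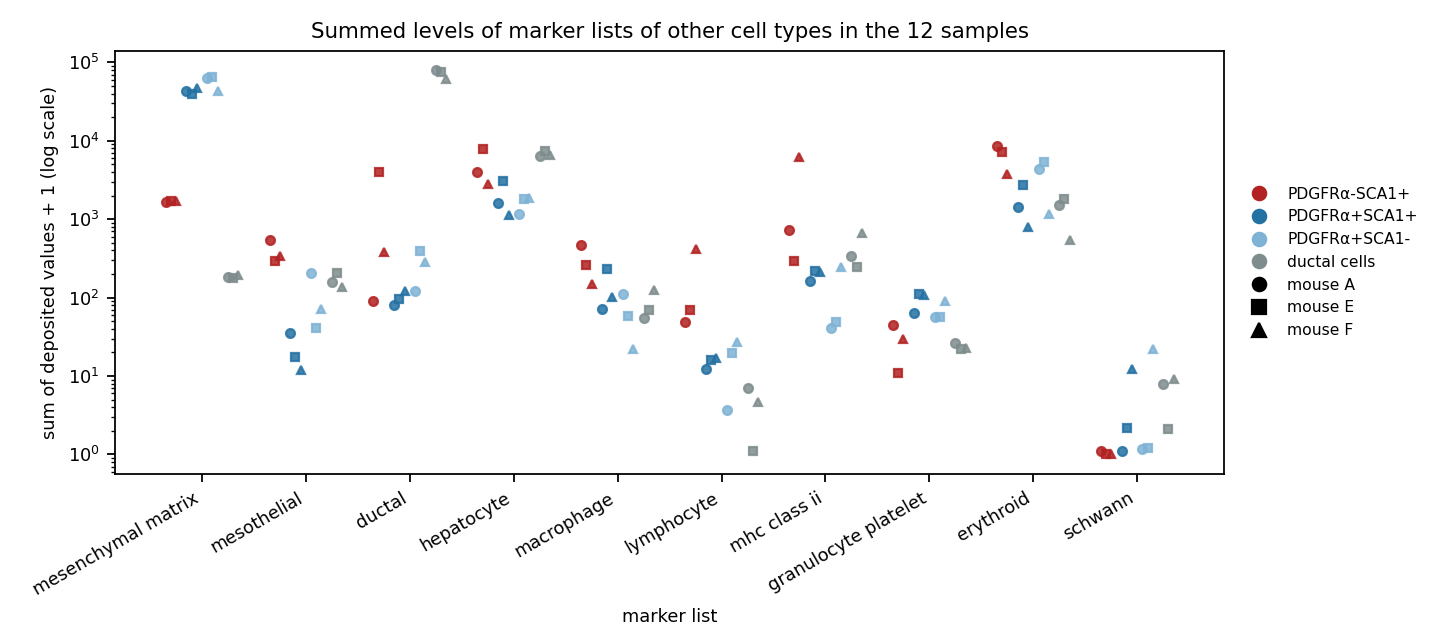
Sum of the deposited values + 1 (log scale, y axis) of the genes of 10 marker lists (x axis) in all 12 samples, coloured by population, with DCs in grey, and with a marker shape per mouse. The PDGFRα-SCA1+ sample of mouse E stands out in ductal genes and that of mouse F in lymphocyte and MHC class II genes, and matrix genes are at 1663 to 1722 in PDGFRα-SCA1+ samples, between PDGFRα+ samples and DCs.

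Genes that cells switch on within minutes of handling were high in both groups and did not move as one. Of 14, 3 were higher and 3 lower, and these counts moved to 1 higher without a trend in limma, to 5 higher without the PDGFRα+SCA1- sample of mouse E and to 5 lower with the reused totals undone. Fos was at 4507, 5092 and 4025, against 4979.8 to 7359 (median 5969.6) in PDGFRα+ samples (-0.41 ± 0.18, limma adjusted p = 0.12), Atf3 at 2650.0, 2621 and 2041, against 625 to 1097 (median 892) (1.52 ± 0.20, limma adjusted p = 1.1e-04), and Egr1 at 2259.9, 1882 and 1858, against 5319 to 6044 (median 5704) (-1.51 ± 0.14, limma adjusted p = 7.1e-06). Nr4a1 was lower, at 589, 445 and 791, against 2863 to 4981 (median 3636) (-2.66). Of 7 cell cycle genes tested, 2 were higher and 5 did not pass, where 15.8% of all genes were higher. Only 1 was higher than in each PDGFRα+ population, and 1 was higher with quantile normalization. The proliferation gene Mki67, 1 of the 2, was at 5.63, 6.19 and 8.39, against 0 to 0.304 (median 0.0169) (2.85 ± 0.42, limma adjusted p = 3.1e-04). The list summed to 97.0, 121 and 199 in PDGFRα-SCA1+ samples, against 79.6 to 104 in PDGFRα+ samples.

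All 8 genes of MHC class I presentation were higher without overlap, with a median of 1.51, and 7 were with quantile normalization. H2-K1 was at 3465, 4154 and 4685, against 1178 to 2324 (median 1674) (1.30 ± 0.23, limma adjusted p = 0.0012), and the immunoproteasome subunit Psmb8 at 223, 259 and 375, against 25.2 to 86.2 (median 53.5) (2.51 ± 0.42, limma adjusted p = 8.9e-04). H2-K1 and H2-D1 are close in sequence, so reads shared between them are uncertain. The interferon-induced genes Cxcl9 and Cxcl10 were higher in the same samples, as given above.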

How the data were processed

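RNA of 12 samples (4 populations sorted from each of 3 mice) was sequenced as single reads of 50 bases. The authors aligned reads to GRCm38/mm10 with STAR 2.5.0a, kept those with a mapping quality of at least 20 (SAMtools), counted reads on exons of Ensembl genes with featureCounts (versions of the last 2 not given in the sources used here), and computed RPKM. The deposited values are a normalised signal named TPM: the authors divided each RPKM by a total and scaled the result to a fixed sum, but down the table the divisor runs through the totals of all 12 samples, so columns sum to 847270 to 1.17351e+06. The 4 columns with the authors' mean of each population were not used. A second table with deposited RPKM values of a transwell culture experiment is used in the closing section.

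Of 49568 genes, the 17028 that reached a value of 1 in 3 or more of the 12 samples were tested with limma 3.58.1 (R 4.3.3) on log2(value + 1), with one mean per population over all 12 samples, a trend in the variance, a contrast of PDGFRα-SCA1+ against the average of both PDGFRα+ means, and Benjamini-Hochberg adjustment (threshold 0.05). Tests were tried on simulated data first. Tables and plots were made with Python 3.11.15, pandas 2.3.3, numpy 2.4.6 and matplotlib 3.10.9. Depth was recovered from values of up to 20 reads, of which 92.9% of 46997 were whole to within 0.02 of a read with GENCODE M21 gene lengths. Floors of 3 reads a library cover counting error only. Coordinates are of GRCm38.

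The samples of one letter come from the same mouse and so are paired. Residuals of same-letter samples correlated by 0.0254, 0.0297 and 0.0630 on average in mice A, E and F. Genes named are members of the lists, plus the 10 largest changes each way among called genes without overlap, leaving out predicted genes. A single gene of the lists is not reported here. The comparison, the gene lists and the motif were chosen with earlier results of these data known. Alternatives were another pseudocount, filter, normalization, variance model, set of samples and fold minimum, the mouse as a block, and each sample left out in turn.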

Additional observations from a re-analysis of the deposited data

Results flagged for a closer look

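Vessel genes also stood above ductal cells in data outside the comparison. In a transwell culture experiment with wild type C57BL/6 mice, SCA1+ stroma was sorted without a gate on PDGFRα. The age of these mice is given as a range that ends at 12 weeks, whereas the mice of the comparison were all of 12 weeks. The stroma was read on the day of the sort and after 15 days in culture, with 2 samples a group. The paper states that stroma for the co-culture was first expanded in culture, before the 15 days with DCs. Depth recovered from low values was 19.3 to 28.1 M reads in this experiment. On the day of the sort, all 23 pan-endothelial and all 14 sinusoidal genes were higher in both samples than in both DC samples. The pan-endothelial genes summed to 1049.8 and 1033 RPKM against 64.5 and 64.2 in DCs, and the sinusoidal genes to 357 and 289 against 44.4 and 43.1. Genes of other cell types stood above DCs as well, and all 10 hepatocyte genes (summed to 10308 and 8471 against 1637 and 2088) and all 5 erythroid genes (2972 and 3675 against 1718 and 1749.8) did so and were lower after culture alone. Their part in the vessel genes' levels was not tested. Pdgfra was at 42.0 and 27.7 RPKM in the same samples, so this fraction held transcripts of both sides of the gate.

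Selp had a mean of 129.5 RPKM in SCA1+ stroma on the day of the sort (146 and 113), against 8.94 and 3.90 in DCs. After 15 days it was at 0 and 0.954 in stroma cultured alone and 0.955 and 0.531 in stroma cultured with DCs. Kdr had a mean of 11.2 RPKM (12.6 and 9.79), against 1.89 and 1.42 in DCs, and was at 2.08 and 2.35 in stroma alone and 2.19 and 1.57 in stroma with DCs after 15 days. Of the sinusoidal genes, 12 of 14 were lower in both samples cultured alone than in both samples of the day of the sort, and 9 were under 1 RPKM in both samples cultured alone. Of the pan-endothelial genes, 11 of 23 were lower in this way and 2 were higher. No test was made of these values.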

How the results depend on the processing

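The counts of genes called stayed within 1.5 times of those given under all alternatives, which were planned. Over the 12 fits that leave out 1 sample each, 1845 to 3070 genes were higher and 1162 to 1766 lower, the fewest higher without the PDGFRα-SCA1+ sample of mouse F and the fewest lower without that of mouse E. With the mouse as a replicate block, 2616 were higher and 1454 lower, and 3914 of the 4183 calls were shared. Quantile normalization turned the split from 64.2% to 48.6% higher, and undoing the reused totals gave 59.7%. Fitting the 9 stromal samples with the PDGFRα+ samples as 1 group left 1899 higher and 1105 lower. Of 141 called genes named here, 131 kept their call under every alternative and 10 lost it under at least 1, and none of the 141 changed direction. Of 18 that did not pass, 9 passed under at least 1 alternative and 4 others changed direction. Their log2 fold changes with 1 sample left out ran from -1.53 to 0.47 for Msln, -1.13 to 1.68 for Upk3b, -0.18 to 2.30 for Clec4f and -1.11 to 1.63 for Cd4. Msln was above 0 without the PDGFRα+SCA1- sample of mouse A or the PDGFRα-SCA1+ sample of mouse E or F, Upk3b and Clec4f were below 0 without the PDGFRα-SCA1+ sample of mouse A, and Cd4 was below 0 without that of mouse F. The causes were not tested. Depth limits genes with few reads, and for those at 0 only a floor can be given.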
